A study of Mus musculus with 18 samples.

Results

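Mandibular bone of Fgfr2+/S252W embryos was compared with mandibular bone of their Fgfr2+/+ littermates at embryonic day 16.5. The S252W change is an Apert syndrome mutation of the fibroblast growth factor receptor 2. It was carried here by 1 of the 2 Fgfr2 alleles in every cell of the embryo, and the controls carried no mutated allele. All embryos were female and labelled C57BL/6, which the study's methods give as C57BL6/J. The members were chosen by their tissue label alone: 6 of the 18 libraries of the series came from mandibular bone, 3 from mutants and 3 from controls, and the other 12 came from Meckel's cartilage and from condylar cartilage. The bone was cut out of frozen head sections by laser capture, its RNA was amplified, and the read pairs (fragments) falling in the exons of each gene were counted. Each library came from 1 embryo, so a group is 3 embryos. Laser capture takes whatever cells lie inside the drawn outline, so a lower level of a gene could come from fewer cells of a type or from less RNA per cell, and these cannot be told apart.

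At this stage the mandible ossifies directly from mesenchyme. Osteoblasts secrete collagen I and mineral-binding proteins, a fibrous layer (the periosteum) covers the bone, and osteoclasts, which are large multinucleated cells of the monocyte-macrophage lineage, resorb it. Osteoclasts form when the receptors CSF1R and RANK (gene Tnfrsf11a) are engaged by CSF1 and RANKL (gene Tnfsf11), precursors then fuse, and the mature cell seals itself to the bone, pumps acid onto it and releases proteases. FGF receptor 2 signals through the RAS-ERK cascade, and the S252W receptor binds its ligands more tightly. The question posed by the comparison is which genes of these cells differ in level in bone that carries the mutated receptor.

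The libraries held 10966635 to 15585778 fragments. Markers of osteoblasts were among the most abundant genes, as the tissue label says: ranked by level per gene length, Col1a2, Col1a1, Ibsp and Spp1 stood at places 8, 9, 11 and 12 of the 12322 genes tested, and the 11 osteoblast markers summed to 39343 to 84860 CPM (fragments of a gene scaled to the library's effective size) in each library. The 18 chondrocyte markers summed to 429 to 961 CPM, with 11 of them below the expression threshold. Control 3 stood apart from controls 1 and 2. Markers of skeletal muscle summed to 1295 and 1157 CPM in controls 1 and 2, to 209.7 CPM in control 3 and to 87.9 to 217 CPM in the mutants. The share of fragments on mitochondrial genes ran likewise, at 36.0%, 34.8% and 20.4% in the controls and 23.4% to 23.6% in the mutants. Over all tested genes the root mean square log2 difference between control 3 and each mutant was 0.352 to 0.396, smaller than its distance of 0.482 and 0.477 to controls 1 and 2. Controls 1 and 2 lay 0.454 from each other, so that by this measure they were about as far apart as either was from control 3. Gm42418, a gene that overlaps ribosomal RNA sequence, took 5.58% to 6.49% of fragments in the mutants and 8.57% to 9.33% in the controls, without overlap and with control 3 the highest. The part of muscle tissue, mitochondrial share or Gm42418 in the differences below was not tested, and counts are given with and without control 3.

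**Figure D1:**
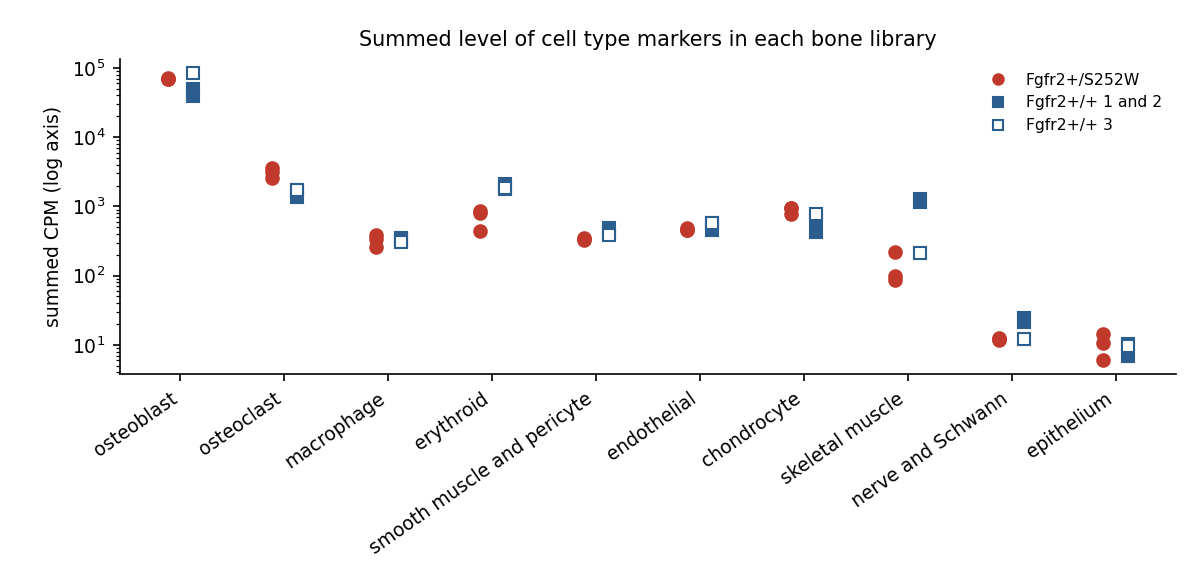
Summed level of each cell type's markers in CPM (log axis) in the 6 bone libraries, with mutants as circles, controls 1 and 2 as filled squares and control 3 as an open square. Osteoclast markers lie at 2540 to 3536 CPM in the mutants, above the 1358 to 1752 CPM of the controls, erythroid markers lie lower in every mutant, and skeletal muscle markers are high in controls 1 and 2 only. Each of the 9 osteoclast markers passed as higher in these libraries, so the separation of their sum is not further evidence.

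Of the 12322 genes, 141 (1.14%) passed an adjusted p of 0.05 in limma, 75 (0.609%) higher and 66 (0.536%) lower in the mutants. The median change was 1.85-fold among the higher genes and 2.15-fold among the lower ones, and the largest was 6.29-fold. The expression threshold was passed through the controls alone by 6 of the 66 lower genes (Adgre1, Fndc1, Negr1, Plppr4, Tmtc1 and Zfp185) and through the mutants alone by 1 of the 75 higher genes (Pls1), so that these 7 could be tested only because 1 group was high. For every one of the 141 genes the 3 mutants lay on one side of the 3 controls, whereas 2531 of all tested genes (20.5%) did so. The count depended on single libraries: 13, 10 and 81 genes passed without mutant 1, 2 or 3, and 13 and 33 without control 1 or 2, while 1370 (11.4%) passed without control 3, 639 higher (5.33%) and 731 lower (6.10%). Other tools also gave other counts. edgeR called 187 genes (1.52%), of which 83 were higher (0.674%) and 104 lower (0.844%), and DESeq2 called 453 of 11844 (3.82%), of which 194 were higher (1.64%) and 259 lower (2.19%). A fit of all 18 libraries called 10 of 11469 genes in bone (0.0872%), 4 higher (0.0349%) and 6 lower (0.0523%). Among the lists described below that fit called 2 lysosomal, 2 pyrophosphate and phosphate, 1 macrophage, 1 imprinted and 1 ribosomal protein gene, and 0 of any other list. An unadjusted p under 0.05 was reached by 1981 of the 12322 genes (16.1%). Of the 141 genes, 135 were tested without control 3, and all 135 were among the 1370. The 8 genes that passed in each of the 6 fits were Enpp1, Srgap3, Ptpn13 and Ank, which were higher, and Penk, Mfap4 and the globin genes Hba-a2 and Hbb-bt, which were lower. In the fit of 18 libraries Ank and Penk kept an adjusted p under 0.05 (0.00278 and 0.0116), while Enpp1 (0.0933), Srgap3 (0.0754), Mfap4 (0.135), Hba-a2 (0.164) and Hbb-bt (0.114) did not, and Ptpn13 was not tested there. Control 3 was the control nearest to the mutants for 43 of the 75 higher and 37 of the 66 lower genes. It lay nearer to the mutant mean than to the mean of controls 1 and 2 for 6 of the higher and 8 of the lower genes.

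**Figure D2:**
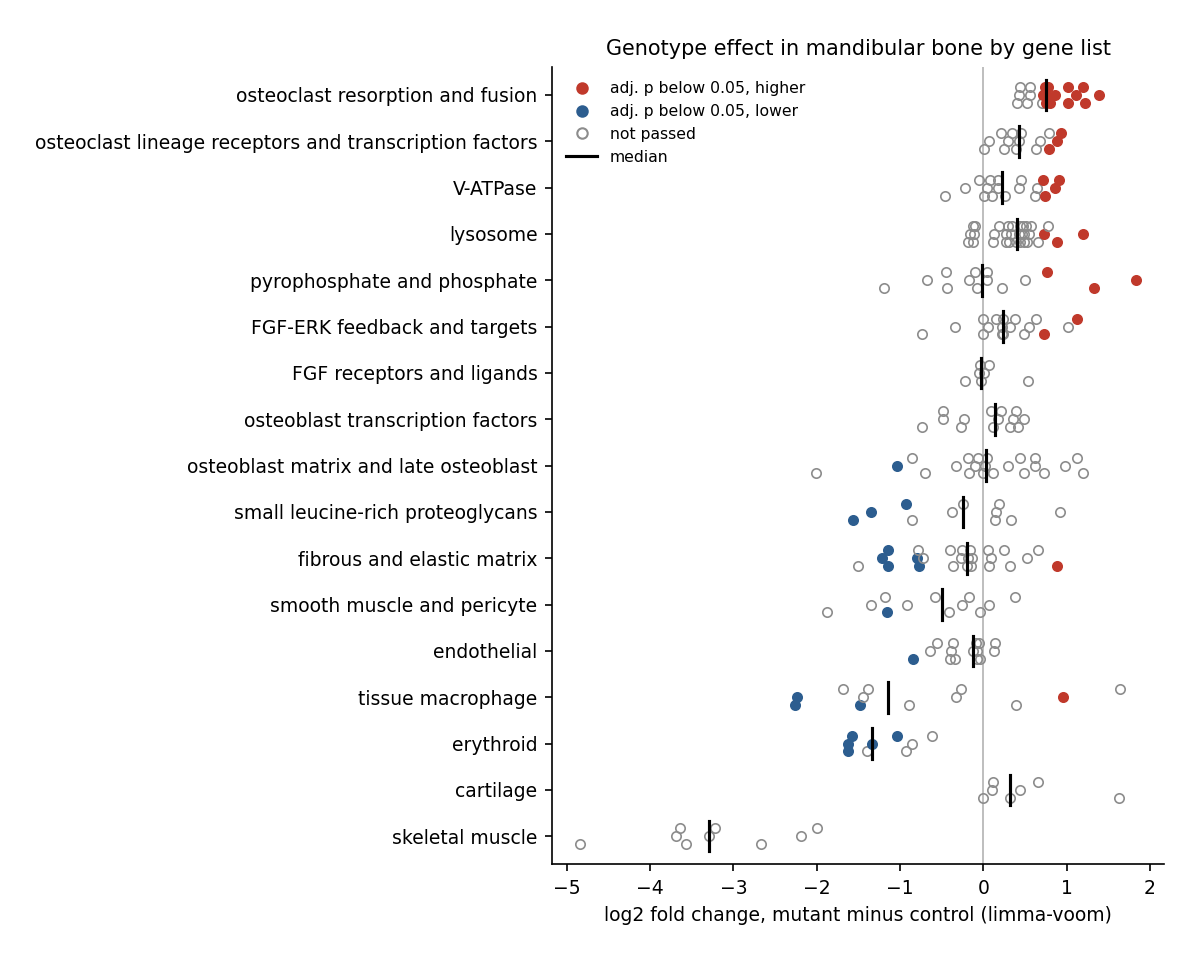
Log2 fold change (mutant minus control, limma-voom) of each tested member of 17 gene lists, with members past an adjusted p of 0.05 filled red (higher) or blue (lower), others open, and the list median as a black bar. All 20 members of the osteoclast resorption list lie above 0 and all 9 erythroid members below 0, and no skeletal muscle member passed, at a median of -3.29.

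Effector genes of the osteoclast rose. Of 20 genes for resorption and cell fusion, all of them tested, 13 rose (0.609% of all genes), none fell (0.536%), and 7 did not pass. The median log2 fold change of the 20 was 0.75, against -0.0049 over all genes, and the 3 mutants lay above the 3 controls for 17 of the 20 (10.6% of all genes). Of the 13, Acp5, Calcr, Ctsk, Itgb3 and Oscar were picked out by the study on these same libraries, so that their direction is not independent evidence. Apart from these libraries, the study reported increased Itgb3 by in situ hybridization and more osteoclasts by staining of sections. Summed over the list, the level was 3258 to 4405 CPM in the mutants and 1864, 2322 and 2330 CPM in the controls. The groups did not overlap, and control 3 here sat beside control 2. With control 3 left out 16 of 19 passed, Siglec15 no longer being tested, and in the fit of 18 libraries 0 passed. Without mutant 1, 2 or 3 the count was 0, 1 and 10, and without control 1 or 2 it was 0 and 2.

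Among the proteases, Mmp9, the gelatinase of the osteoclast (chr2:164940780-164955850, mm10), was at 1175, 982 and 773 CPM in the mutants and at 302, 448 and 544 CPM in the controls, 2.3-fold higher (adjusted p = 0.0231). Ctsk, the collagen-cutting cathepsin K (chr3:95499286-95509362), was at 1057, 993 and 792 CPM against 541, 646 and 534 CPM, a log2 fold change of 0.72 ± 0.15 (SE; adjusted p = 0.046). Both genes were separated between the groups, with mutant 3 the lowest mutant for each. Mmp14, a membrane-bound metalloproteinase that osteoblasts and fibroblasts also make, did not pass (0.43, adjusted p = 0.162). Acp5, which encodes the tartrate-resistant acid phosphatase (TRAP) that is used to stain osteoclasts (chr9:22126731-22135746), was at 427, 398 and 330.1 CPM against 192, 241 and 232 CPM, 1.74-fold higher (adjusted p = 0.0241).

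Among the resorption genes, 5 that act in acid transport passed, with log2 fold changes from 0.74 to 0.86. Differences between these changes were not tested. Car2, the carbonic anhydrase that supplies protons, had a log2 fold change of 0.75 ± 0.14, and Slc4a2, the anion exchanger that balances them, 0.78 ± 0.16. The proton pump subunits of the osteoclast, Tcirg1 (a3) and Atp6v0d2 (d2), changed by 0.74 ± 0.16 and 0.86 ± 0.15, and the sodium-proton exchanger gene Slc9b2 by 0.76 ± 0.16. The largest adjusted p of these 5 was 0.0481. Clcn7, the chloride transporter that works with the pump, was at 47.3, 42.6 and 39.2 CPM in the mutants and at 18.3, 32.9 and 30.4 CPM in the controls. Its groups did not overlap, and it did not pass (adjusted p = 0.119).

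Genes of fusion, adhesion and surface receptors differed in size of change. Calcr, the calcitonin receptor, which within bone marks mature osteoclasts, was at 31.6, 19.1 and 25.6 CPM in the mutants and 10.3, 9.22 and 8.84 CPM in the controls, 2.63-fold higher (adjusted p = 0.0139). Oscar, an immunoglobulin-like receptor that costimulates osteoclast formation, was at 46, 40 and 33.9 CPM against 15.2, 16.2 and 19.5 CPM, 2.33-fold higher (adjusted p = 0.00917). The fusion genes Dcstamp and Ocstamp were each 2.03-fold higher (adjusted p = 0.0187 and 0.0338), and Itgb3, the β3 integrin of the sealing zone, was 2.16-fold higher (adjusted p = 0.0249). For Calcr, Oscar, Dcstamp, Ocstamp and Itgb3 each mutant exceeded each control. Src, Snx10 and Siglec15, which act in adhesion, vesicle traffic and fusion of osteoclasts, did not pass, with log2 fold changes of 0.56, 0.41 and 0.44 and adjusted p-values of 0.204, 0.355 and 0.743. Siglec15 was close to the expression threshold, with 5 fragments in its lowest library.

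**Figure D3:**
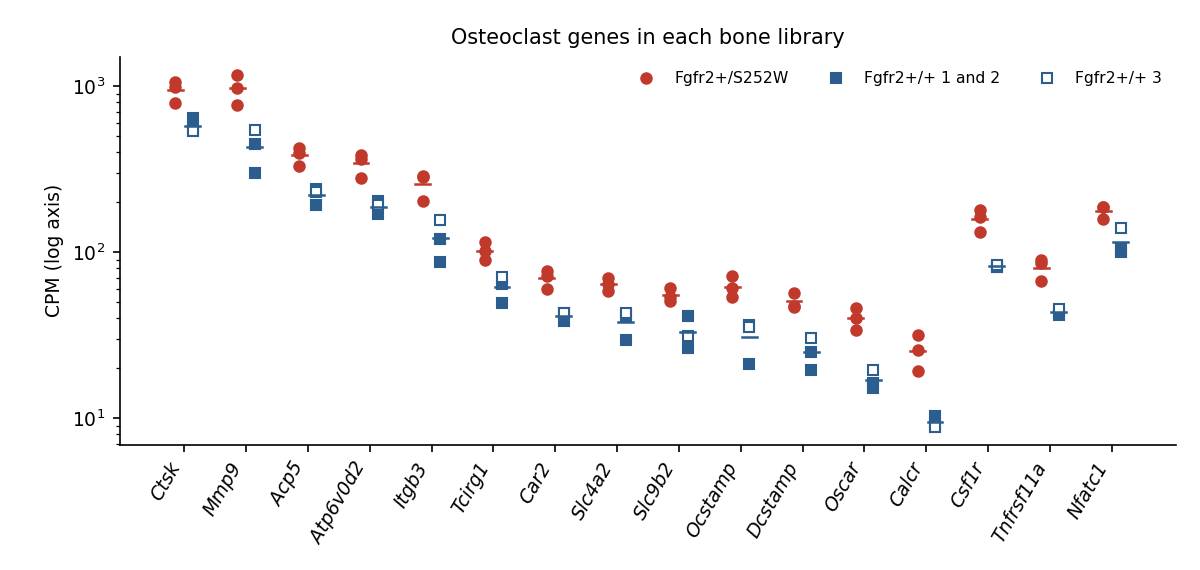
Level of 16 osteoclast genes in CPM (log axis) in each bone library, with mutants as circles, controls as squares (control 3 open) and group means as bars. Mutants and controls do not overlap for any of the 16 genes (20.5% of all tested genes do not overlap). All but Nfatc1 passed an adjusted p of 0.05, and every gene that passed was separated in this way. Control 3 is the control nearest to the mutants for Mmp9, Itgb3 and Nfatc1 among others.

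The stretches before the starts of these genes were read for the letters of factors known to act in osteoclasts or downstream of ERK. RefSeq windows of 250 bases before a start (build GRCm38.p6) were on hand for 8751 of the 12322 tested genes, for 52 of the 75 higher genes and for 7 of the 13 osteoclast genes. Both strands were searched for an M-box (TCATGTG, bound by the MITF family), an E-box (CACGTG), an AP-1 site (TGANTCA), a PU.1 site (GAGGAAGT), an NFAT core (GGAAAA), an ETS site (CCGGAAGT) and an EGR1 site (GNGTGGGNG). The letters of the EGR1 site were in 29.0% of the 69 windows of higher genes, in 17.4% of the 46 windows of lower genes and in 15.2% of the 11201 windows of all tested genes. Counted by gene they were in 18 of the 52 higher genes (34.6%) and in 1568 of all 8751 (17.9%). The median GC content of the windows was 61.2% for higher, 56.6% for lower and 60% for all genes, and the letters of this site are rich in G. The NFAT core was in 15.9% of the windows of higher genes and in 18.5% of all. The letters of the ETS site, the other one tied to ERK, were in 1 of the 69 windows of higher genes (1.45%), in 0 of the 46 windows of lower genes and in 6.11% of all. Between higher genes and all genes the shares were 8.70% and 8.37% for the E-box, 2.90% and 1.68% for the M-box, 4.35% and 4.05% for AP-1, and 1.45% and 2.38% for PU.1. Of the 13 windows of the 7 osteoclast genes 4 held the NFAT core and 5 the EGR1 letters. Windows of Tcirg1 overlap and share EGR1 letters, so that this stretch is counted more than once. Counted by gene, the NFAT core was in 4 of the 7 (21.6% of all genes) and the EGR1 letters in 3 (17.9%). Both windows of Calcr, the 1 of Ctsk, 1 of the 3 of Acp5 and 1 of the 2 of Slc4a2 held none of the 7 motifs. The 3 windows printed were picked because they hold matches, which are in capitals: Acp5 (chr9:22135747-22135996, minus strand, inside a gene on the other strand, with an NFAT core and an EGR1 site), Tcirg1 (chr19:3905231-3905480, minus strand, in an intron of the longer transcripts, with an NFAT core and an EGR1 site) and Oscar (chr7:3616158-3616407, minus strand, with 2 NFAT cores).
Acp5: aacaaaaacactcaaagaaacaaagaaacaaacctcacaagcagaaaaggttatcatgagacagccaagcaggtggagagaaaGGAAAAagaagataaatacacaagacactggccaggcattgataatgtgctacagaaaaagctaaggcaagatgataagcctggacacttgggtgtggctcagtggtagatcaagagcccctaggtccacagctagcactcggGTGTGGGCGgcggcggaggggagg
Tcirg1: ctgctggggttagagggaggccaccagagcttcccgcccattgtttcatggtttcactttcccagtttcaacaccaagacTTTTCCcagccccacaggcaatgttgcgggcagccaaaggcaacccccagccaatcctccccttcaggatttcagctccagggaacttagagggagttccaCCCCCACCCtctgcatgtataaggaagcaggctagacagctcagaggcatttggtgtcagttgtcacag
Oscar: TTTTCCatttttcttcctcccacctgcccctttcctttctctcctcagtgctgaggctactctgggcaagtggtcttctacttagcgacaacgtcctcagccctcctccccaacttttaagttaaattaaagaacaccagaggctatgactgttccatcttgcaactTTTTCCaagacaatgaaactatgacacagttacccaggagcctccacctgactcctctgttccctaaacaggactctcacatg
A match is a run of letters and not evidence of binding. The letters searched were chosen with the results known.

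Of 18 receptors and transcription factors of the osteoclast lineage 15 were tested, 3 rose and none fell. The list's median log2 fold change was 0.43. Csf1r, the receptor for CSF1, was at 180.4, 163 and 132 CPM in the mutants and at 81, 81.3 and 84 CPM in the controls, a log2 fold change of 0.94 ± 0.14 (adjusted p = 0.0106). Tnfrsf11a, which encodes RANK, was at 89.3, 85.7 and 67.2 CPM against 42, 42.9 and 45.5 CPM (0.88 ± 0.14, adjusted p = 0.0165). The controls were tightly grouped for both receptors, and control 3 was not set apart. Il1r1, an interleukin 1 receptor, changed by 0.79 ± 0.15 (adjusted p = 0.0336). All 3 genes were among those that the study picked out. The study also reported more Csf1r-positive cells in mutant mandibles by in situ hybridization. Nfatc1, the master transcription factor of osteoclast formation, was at 187, 187 and 158 CPM against 100.2, 104 and 141 CPM and did not pass (0.64, adjusted p = 0.0712). Prdm1, which represses inhibitors of the process, gave 0.79 (adjusted p = 0.0707), and Spi1, which encodes PU.1, gave 0.39 with overlapping groups. Without control 3, 5 of the 15 passed. The count was 0, 0 and 2 without mutant 1, 2 or 3, and 0 and 1 without control 1 or 2.

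Of 12 signals that induce osteoclasts 7 were tested, and none passed. Csf1 was at 155, 132 and 116 CPM in the mutants and 90.8, 80.8 and 109.8 CPM in the controls, with no overlap and an adjusted p of 0.145. Tnfsf11, which encodes RANKL, was near the lower end of what was tested, at 11.1, 7.78 and 6.84 CPM against 5.08, 8.12 and 5.54 CPM (adjusted p = 0.393), and its decoy receptor Tnfrsf11b at 10.1, 13.6 and 8.37 CPM against 9.42, 12.8 and 6.84 CPM (adjusted p = 0.75). The groups overlapped for both genes. In limma 0 of the 7 passed and 3 had an unadjusted p under 0.05, edgeR called 0 and DESeq2 called 3. Without control 3, 3 of the 7 passed.

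Of 18 tested subunits of the vacuolar proton pump 4 rose and none fell, with a median log2 fold change of 0.22. They were the osteoclast subunits Tcirg1 and Atp6v0d2 and the subunits of the catalytic head Atp6v1a (0.72 ± 0.13, adjusted p = 0.0232) and Atp6v1b2 (0.90 ± 0.19, adjusted p = 0.0481). Atp6v0a1, the a subunit that most cells use in place of Tcirg1, was at 26.5, 27.6 and 27.5 CPM against 32.2, 22.8 and 30.2 CPM. Its log2 fold change was -0.05 ± 0.16 (adjusted p = 0.91). Without mutant 1, 2 or 3 the count was 0, 0 and 3. It was 0 without control 1 or 2, and without control 3 it was 6 higher and 1 lower.

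Of 32 lysosomal genes 3 rose and none fell, with a median of 0.41 and the mutants above the controls for 17 (10.6% of all genes). Gnptab, which tags enzymes for the lysosome, changed by 0.88 ± 0.14, and Slc37a2, a sugar-phosphate transporter of the macrophage lineage, by 1.19 ± 0.21. Without control 3 the count was 13. It was 0, 0 and 2 without mutant 1, 2 or 3, and 0 and 1 without control 1 or 2. Arsb, a lysosomal sulfatase that was on no list and was picked after its values were seen, was at 202, 189.9 and 171 CPM against 67.7, 113 and 113 CPM (0.97 ± 0.18, adjusted p = 0.0311).

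Some genes on no list were picked from the higher genes after their values were seen, and no group was tested. Rac2, a small GTPase of blood cells, changed by 0.78, Itgb2, the β2 integrin of leukocytes, by 0.94, Dock5, an exchange factor for Rac, by 1.05, and Laptm5, a lysosomal membrane protein of blood cells, by 0.88. Gpr137b changed by 0.86, Tm4sf19 by 1.03 and Ckb, the brain-type creatine kinase, by 0.90. For these 7 genes every mutant lay above every control. Their adjusted p-values lay between 0.0187 and 0.046.

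Tissue macrophages share this lineage, and their markers did not move as one. Of 19 markers 12 were tested, of which 1 rose and 3 fell, and the median log2 fold change was -1.14. Cd68, a lysosomal glycoprotein of macrophages that osteoclasts also make, was at 182, 163 and 128 CPM in the mutants and at 56.4, 92.3 and 97.7 CPM in the controls (0.96 ± 0.20, adjusted p = 0.046). C1qb, a complement subunit that resident macrophages make, was at 1.19, 1.39 and 1.38 CPM against 7.67, 6.41 and 5.54 CPM, 4.79-fold lower (adjusted p = 0.01). Adgre1, the F4/80 antigen, fell 4.7-fold and rested on few fragments, with 8 in its lowest library (adjusted p = 0.046). Adgre1, Mrc1 and C1qc entered the test through the controls alone and Cd163 through the mutants alone, so the count and the median of this list lean on how members entered the test. Lyz2, the lysozyme of myeloid cells, was at 13, 27.9 and 30 CPM against 62.3, 57.3 and 66.7 CPM (-1.48 ± 0.24, adjusted p = 0.0183). Mrc1, the mannose receptor, was lower in each mutant (-1.38, adjusted p = 0.064), and Cd163, a scavenger receptor, was higher in each (1.64, adjusted p = 0.0635). Neither passed. The 19 markers summed to 382.4, 333.3 and 256.6 CPM in the mutants and to 325.9, 343.9 and 311 CPM in the controls, with overlap. Cd68 alone gave 182, 163 and 128 CPM of the mutant sums and 56.4, 92.3 and 97.7 CPM of the control sums. The overlap leaned on this gene, which osteoclasts also make. Ctss, a cathepsin of antigen-presenting cells that was on no list and was picked after its values were seen, fell 2.25-fold (adjusted p = 0.0499). Without control 3, 2 markers were higher and 3 lower, and the median over the 9 still tested was -0.47. The members then below the expression threshold were Adgre1, Mrc1 and C1qc, whose log2 fold changes with all 6 libraries were -2.23, -1.38 and -1.68. The counts of lower markers were 1, 0 and 3 without mutant 1, 2 or 3, and 1 in each case without control 1 or 2.

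None of 14 tested transcription factors of osteoblasts passed in limma, Runx2 (0.33, adjusted p = 0.287) and Sp7 (0.17, adjusted p = 0.697) among them, and the median was 0.14. An unadjusted p under 0.05 was reached by 4 of the 14, edgeR called 0 and DESeq2 called 1. Without control 3, 2 were higher (5.33% of all genes) and 1 was lower (6.10% of all genes). Of 22 genes of bone matrix and late osteoblasts 1 fell, none rose, and the median was 0.04, which became 0.36 without control 3. An unadjusted p under 0.05 was reached by 11 of the 22, edgeR called 2 and DESeq2 called 6, 3 in each direction. The gene that fell was Pdpn, an early marker of osteocytes that lymphatic vessels and fibroblasts also express, at 6.3, 5.19 and 6.91 CPM against 11.8, 10.3 and 15.3 CPM (-1.04 ± 0.22, adjusted p = 0.046). Control 3 had the highest level for the main collagens. Col1a1 was at 27252, 27689 and 27033 CPM in the mutants and at 16761, 10793 and 32063 CPM in the controls (0.62 ± 0.31, adjusted p = 0.355), so that the mutants lay between the controls. Col1a2 showed the same order (0.44 ± 0.28, adjusted p = 0.464).

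Of the 22 matrix genes 4 were higher and 4 lower in each mutant (20.5% of all genes did not overlap), and 6 that did not pass are given as examples. Ibsp, bone sialoprotein, was at 5766, 4869.8 and 4821 CPM against 9022, 6784 and 9668 CPM (-0.70, adjusted p = 0.0855), and Sost, the Wnt inhibitor of osteocytes, was at 1.68, 0.905 and 1.31 CPM against 4.62, 3.21 and 7.84 CPM and entered the test through the controls alone (adjusted p = 0.0551). Dmp1, a phosphoprotein of early osteocytes, was at 362, 560.4 and 322 CPM against 187, 125 and 265 CPM (1.13, adjusted p = 0.0573). Bglap and Bglap2, the near-identical osteocalcin genes, between which fragments may be split, gave 1.19 and 0.98 (adjusted p = 0.0728 and 0.0707), and Spp1, osteopontin, gave 0.62 (adjusted p = 0.148). For each of these 6 genes the groups did not overlap. Without control 3 the matrix list had 7 members higher and 3 lower, Col1a1 and Col1a2 among the higher ones, and no member passed without any 1 of the other 5 libraries.

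Control of mineral by pyrophosphate and phosphate concerned few genes. Of 14 tested genes 3 rose, none fell, and the median was -0.02 (0.06 without control 3). Enpp1, the ectoenzyme that makes pyrophosphate, an inhibitor of mineral growth (chr10:24637914-24712158), was at 529, 603 and 481 CPM against 120.4, 141 and 199 CPM, the largest increase of the 75 (1.83 ± 0.18, 3.57-fold, adjusted p = 0.00217, but 0.0933 in the fit of 18 libraries). Ank, which lets pyrophosphate precursors out of the cell (chr15:27466677-27594909), was at 265, 264 and 212 CPM against 81.2, 99.1 and 116 CPM (1.33 ± 0.15, adjusted p = 0.00288). Xpr1, the phosphate exporter, was at 395, 360.0 and 351 CPM against 197, 221 and 236 CPM (0.76 ± 0.13, adjusted p = 0.0187). Control 3 was the highest control for all 3 genes and lay below every mutant. Enpp1 and Ank were among the genes that the study singled out. Apart from these libraries, it reported increases of both by in situ hybridization and a higher pyrophosphate concentration in mutant mandibles. Alpl, the alkaline phosphatase that breaks pyrophosphate down, was at 758, 683 and 721 CPM against 648, 609 and 875 CPM (0.04 ± 0.15, adjusted p = 0.932), and Phospho1, which releases phosphate inside matrix vesicles, overlapped as well (-0.67 ± 0.32, adjusted p = 0.33). The list held 3 passing genes without mutant 3 or control 3, and 2 of them, Enpp1 and Ank, without any 1 of the other 4 libraries.

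The level of the mutated gene overlapped between the groups: Fgfr2 was at 302, 276 and 313 CPM in the mutants and at 384, 277 and 262 CPM in the controls (-0.03 ± 0.15, adjusted p = 0.945). Counts by gene do not tell the mutated allele from the normal one, so that this level checks neither genotype nor dose. Fgfr1 was at 294, 293 and 275 CPM against 202, 148 and 262 CPM (0.53, adjusted p = 0.187) and Fgfr3 gave 0.06 ± 0.18. In limma 0 of the 7 tested receptors and ligands passed and 1 had an unadjusted p under 0.05, and edgeR and DESeq2 each called 0. Fgfr1 passed without control 3. Among 18 tested feedback genes and targets of the FGF-ERK cascade 2 rose. Egr1, an immediate early gene, was at 84, 115 and 87.9 CPM against 27.5, 56 and 53 CPM, 2.18-fold higher (adjusted p = 0.0455), and Etv1, an ETS factor of the PEA3 group, was at 32.5, 30.1 and 27.6 CPM against 17.5, 18.6 and 18 CPM (0.73 ± 0.14, adjusted p = 0.0368). Both were separated between the groups. Its relative Etv5 (0.55, adjusted p = 0.162), the phosphatase Dusp4 (1.02, adjusted p = 0.0957) and the inhibitor Spry4 (0.48, adjusted p = 0.203) were higher in each mutant and did not pass, and Ccnd1, cyclin D1, was lower in each (-0.73, adjusted p = 0.0712). The median over the 18 was 0.24. No member of this list passed without any 1 of mutants 1 to 3 or controls 1 and 2, and without control 3 there were 4 higher and 2 lower.

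Genes of fibrous matrix were among the lower genes. Of 11 tested small leucine-rich proteoglycans, which coat collagen fibrils, 3 fell and none rose. Aspn, asporin (chr13:49544443-49567557), was at 95.7, 97.7 and 103 CPM in the mutants and at 380.3, 383 and 169.7 CPM in the controls (-1.56 ± 0.25, adjusted p = 0.0151). Its neighbour Ogn, osteoglycin (chr13:49608071-49624500), was at 85.6, 80.7 and 93.7 CPM against 300.4, 277 and 128 CPM (-1.35 ± 0.25, adjusted p = 0.0298). For both genes control 3 lay nearer to the mutants than to controls 1 and 2 on the log2 scale. Fmod, fibromodulin, was at 51.7, 69 and 77.6 CPM against 132, 119.6 and 122 CPM (-0.93 ± 0.15, adjusted p = 0.0182), with control 3 beside the other controls. Omd, osteomodulin, lies in the same cluster of genes as Aspn and Ogn and did not pass: it was at 76.7, 70.5 and 67.6 CPM against 155, 212 and 65.9 CPM, with control 3 below the mutants. The main members of the family, Dcn (0.14, adjusted p = 0.621) and Bgn (-0.24, adjusted p = 0.435), did not pass either. The count was 0, 0 and 3 without mutant 1, 2 or 3, and 0 without control 1 or 2, and without control 3 it was 4 lower and 1 higher.

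Of 25 tested genes of fibrous and elastic matrix 5 fell and 1 rose, and the median was -0.20. Mfap4, a microfibril protein, was at 56.2, 57.6 and 55.4 CPM against 150.5, 122 and 106 CPM (-1.15 ± 0.14, adjusted p = 0.00428). Mgp, matrix Gla protein, an inhibitor of calcification, was at 12, 10.2 and 9.17 CPM against 28.4, 27.8 and 18.5 CPM (-1.22 ± 0.20, adjusted p = 0.0187), and Thbs3, a thrombospondin, at 11.2, 11.2 and 8.07 CPM against 23.5, 20.9 and 22.5 CPM (-1.14 ± 0.17, adjusted p = 0.0119). For Mfap4 and Mgp control 3 was the control nearest to the mutants, and for Thbs3 it was not. Fbn1, fibrillin 1, and Tnn, tenascin W, fell by 0.80 and 0.77 on the log2 scale (adjusted p = 0.046 for each). Aspn, Mgp, Thbs3 and Tnn, like Chrdl1, Igf1, Ptn and Sfrp2 below, were picked out by the study on these libraries, so that their direction is not independent evidence. Fbln1, fibulin 1, went the other way, at 58.4, 60.9 and 59.8 CPM against 32.2, 31.6 and 33.3 CPM (0.88 ± 0.12, adjusted p = 0.01), with less than 4 CPM between libraries of a group. Postn, periostin, was at 919, 906 and 683 CPM against 1662, 1723 and 993 CPM and did not pass (-0.78, adjusted p = 0.102), nor did Fbln5 (-1.51, adjusted p = 0.072) or Col3a1 (-0.25, adjusted p = 0.402). Without mutant 1, 2 or 3 the count of lower genes was 1, 1 and 3. Without control 1, 2 or 3 it was 1, 3 and 9. The count of higher genes was 0, 0 and 1 without mutant 1, 2 or 3, and 1, 1 and 3 without control 1, 2 or 3.

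**Figure D4:**
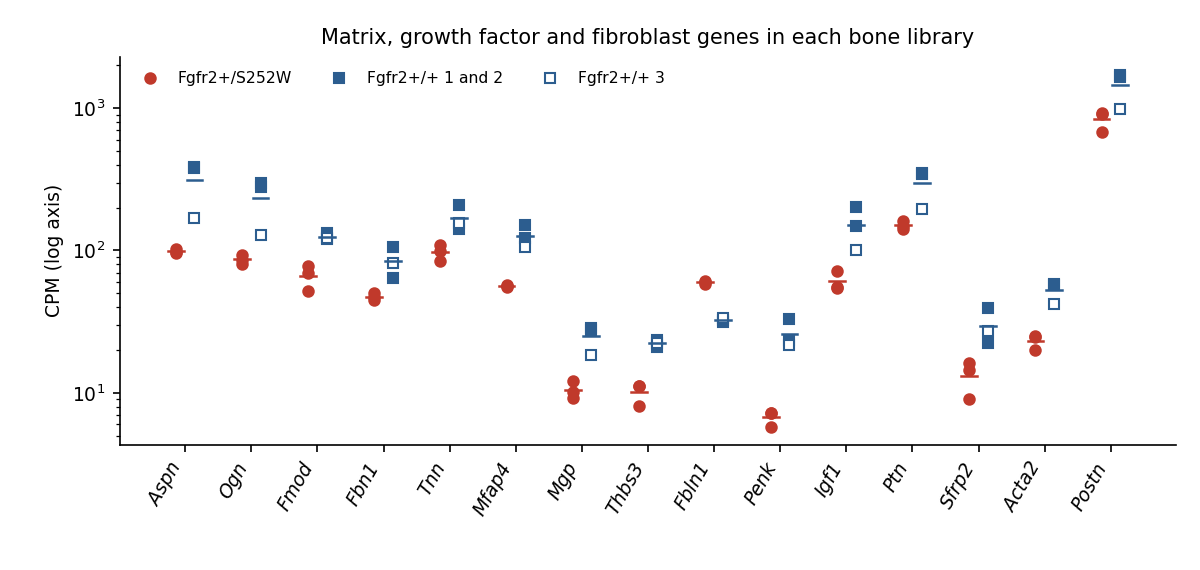
Level of 15 genes of matrix, growth factors and fibroblast-like cells in CPM (log axis) in each bone library, with mutants as circles, controls as squares (control 3 open) and group means as bars. Fbln1 is higher and the other 14 genes are lower in each mutant (9.98% of all tested genes are lower in each). In the full lists 8 of 25 fibrous matrix genes and 3 of 11 proteoglycans were lower in each mutant, and 2 of each list were higher. Control 3 is the control nearest to the mutants for Aspn, Ogn, Igf1, Ptn and Postn among others.

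Of 7 tested tendon genes only Fmod passed in limma, while edgeR called 3 and DESeq2 called 2. Without control 3, 3 were lower and 1 was higher (6.10% and 5.33% of all genes). The count of lower genes was 0, 0 and 1 without mutant 1, 2 or 3, and 0 without control 1 or 2. Tnmd, tenomodulin, was at 1.05, 1.39 and 1.02 CPM in the mutants and 11.5, 6.31 and 1.69 CPM in the controls, and Thbs4 at 2.1, 4.64 and 5.75 CPM against 29, 18.1 and 6.46 CPM (adjusted p = 0.22 and 0.135). Both genes followed the muscle markers, being high in controls 1 and 2 only. Matn2, Abi3bp, Smoc2 and Crispld2 were on no list and were picked from the lower genes after their values were seen, and no group was tested. The log2 fold changes were as follows: Matn2 (-0.69), Abi3bp (-1.56), Smoc2 (-1.07) and Crispld2 (-1.03), with adjusted p-values from 0.0241 to 0.0481. Matn2, an adaptor of matrix filaments, was the most even of them, at 31.6, 30 and 31.1 CPM against 51.2, 49.8 and 48.7 CPM.

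Few genes of growth factor pathways passed. Igf1 was at 55.1, 54.4 and 72.3 CPM against 201, 149.8 and 101 CPM (-1.27 ± 0.21, adjusted p = 0.0187) and was the only one of 10 tested genes of the IGF axis to pass in limma (1 in edgeR and 2 in DESeq2), while the receptor gene Igf2r gave 0.53 (adjusted p = 0.154). Of 25 tested Wnt pathway genes Lef1, a transcription factor of the pathway, rose (1.26 ± 0.27, adjusted p = 0.0481), and Sfrp2, a secreted Wnt-binding protein, and Ptn, pleiotrophin, fell (-1.17 ± 0.24 and -0.93 ± 0.20, adjusted p = 0.046 and 0.0462). Ptn was at 149.6, 160.3 and 141 CPM against 343, 349.9 and 195 CPM, again with control 3 nearest to the mutants. Of 28 tested BMP and TGF-beta pathway genes Chrdl1, a BMP antagonist, fell (-0.83 ± 0.14, adjusted p = 0.0196). Its 3 control levels, 57, 57.4 and 67.4 CPM, lay above 36, 29.4 and 37.4 CPM in the mutants, and control 3 was the highest. Cdkn1c, an imprinted inhibitor of the cell cycle, was at 203, 233 and 246 CPM against 460.3, 393 and 398 CPM (-0.88 ± 0.13, adjusted p = 0.0106) and was the only one of 16 tested cell cycle inhibitors and imprinted growth genes to pass in limma, while edgeR called 2 and DESeq2 called 5. For the Wnt list edgeR called 5 and DESeq2 called 7, and for the BMP and TGF-beta list 1 and 6. None of 22 tested genes of proliferating cells passed in limma, edgeR or DESeq2, 3 had an unadjusted p under 0.05 in limma, and their median was -0.12. In these lists the counts without control 3 were 2 higher and 3 lower (IGF), 3 and 7 (Wnt), 3 and 7 (BMP and TGF-beta), 1 and 8 (imprinted and inhibitors) and 0 and 2 (proliferation). Of all genes 5.33% were higher and 6.10% lower in that fit. Igf1, Chrdl1, Sfrp2, Ptn, Lef1 and Cdkn1c each failed in some of the fits that left out 1 other library.

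Penk, which encodes the precursor of the enkephalins and is also active in mesenchyme, had the smallest p of the 66 lower genes. It was at 7.21, 7.18 and 5.75 CPM in the mutants and at 32.8, 23.7 and 21.7 CPM in the controls (-1.92 ± 0.21, 3.8-fold, adjusted p = 0.00244), and it passed without any 1 library. Some genes fell by more, of which Zfp185, Fndc1 and Negr1 were under 1 FPKM in each mutant and entered the test through the controls, as did Plppr4, and Tppp3 was over 1 FPKM in 1 mutant only. Tppp3, a tubulin-binding protein of tendon sheath and fibroblast-like cells, was at 1.4, 1.69 and 1.75 CPM against 15, 11.5 and 6.69 CPM (6.29-fold), Zfp185, a regulator of actin, at 2.1, 3.44 and 2.76 CPM against 22.1, 17.2 and 10.1 CPM (5.56-fold), and Crabp1, a retinoic acid-binding protein of mesenchyme, at 3.29, 2.83 and 2.76 CPM against 20.1, 15.8 and 7.77 CPM (4.44-fold). Control 3 was the lowest control for each of these, as it was for the matrix gene Fndc1 (5.73-fold lower), the stress gene Chac1 (4.63-fold lower) and the adhesion gene Negr1 (4.19-fold lower). Plppr4 fell 3.13-fold and the immunoglobulin heavy chain gene Ighm 3.35-fold, with control 3 the highest control for both. Their adjusted p-values ran from 0.0106 to 0.0499.

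Among increases outside the lists, Srgap3, a GTPase-activating protein, was at 126, 112 and 98.8 CPM against 45, 45.3 and 47.9 CPM (1.28 ± 0.13, adjusted p = 0.00244), Ptpn13, a tyrosine phosphatase, at 117, 133 and 122 CPM against 52.6, 55.8 and 61 CPM (1.14 ± 0.13, adjusted p = 0.00244) and Megf10, an engulfment receptor, at 89.7, 86.3 and 85.3 CPM against 46.1, 49 and 42.4 CPM (0.93 ± 0.12, adjusted p = 0.00782). In each of the 3 the spread within a group was far smaller than the gap. Gfra1, a receptor of the GDNF family, rose 2.77-fold, Unc13c 2.92-fold, Pls1, an actin bundler, 2.6-fold, Cyp2s1 2.52-fold, Akr1c18 2.47-fold, Plcb2, a phospholipase C of blood cells, 2.37-fold and Cyfip2, a member of the WAVE actin complex, 2.34-fold. Their adjusted p-values ran from 0.01 to 0.0468. Plcb2, Pls1, Unc13c and Cyp2s1 were below 20 CPM in every library.

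Genes of red cells fell. Of 9 tested erythroid genes 5 fell, none rose, and the median log2 fold change was -1.34. Hbb-bs, the adult β globin gene, was at 493, 257 and 469 CPM against 1091, 1304 and 1103 CPM (-1.57 ± 0.22, adjusted p = 0.00917), and Hbb-bt, Hba-a1 and Hba-a2 fell 3.09-fold, 2.52-fold and 3.07-fold. The 4 globin genes form 2 pairs of near-identical copies, so that fragments may be split between the members of a pair. Slc4a1, the band 3 anion exchanger of red cells, was at 23.3, 11.5 and 17.9 CPM against 33.5, 29.6 and 40.3 CPM (2.06-fold lower, adjusted p = 0.0491), and Alas2, the haem enzyme of red cells, gave -0.85 (adjusted p = 0.108). The erythroid markers summed to 445 to 861 CPM in the mutants and to 1786, 2106 and 1864 CPM in the controls, and control 3 lay with the other controls. Without mutant 1, 2 or 3 the count was 3, 3 and 4. Without control 1, 2 or 3 it was 2, 3 and 6.

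Of 15 tested endothelial genes Egfl7 alone fell in limma (-0.84 ± 0.17, adjusted p = 0.0436; 1 call in edgeR and 2 in DESeq2), and the markers summed to 452.3 to 482 CPM against 460.5 to 580.5 CPM. Of 12 tested smooth muscle and pericyte genes Acta2 alone fell in limma (3 calls in edgeR and 5 in DESeq2), at 24.6, 25.1 and 19.9 CPM against 58.6, 57.3 and 41.8 CPM (-1.16 ± 0.17, adjusted p = 0.01), and 8 of the 12 were lower in each mutant (9.98% of all genes). Rgs5, a pericyte gene, was at 20.9, 25 and 25 CPM against 90.2, 57.9 and 30 CPM and did not pass (adjusted p = 0.0956). Its control levels followed the muscle markers. Without control 3, 6 smooth muscle genes were lower and 1 higher, and 2 endothelial genes were lower. Of all genes 6.10% were lower and 5.33% higher in that fit. Egfl7 did not pass without any 1 of the other libraries, and Acta2 passed without mutant 3 or control 2. Vcam1, Ackr3, Apln and Fabp4, which were on no list and were picked from the lower genes after their values were seen, fell by 1.03, 1.02, 0.83 and 1.05 on the log2 scale (adjusted p from 0.0311 to 0.0481).

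Skeletal muscle genes separated controls 1 and 2 from control 3. Myh3, the embryonic myosin heavy chain, was at 0.14, 4.34 and 12.2 CPM in the mutants and at 134, 140.0 and 13.1 CPM in the controls, a log2 fold change of -4.84 (adjusted p = 0.159). Ttn, titin, was at 76.2, 74.3 and 147 CPM against 759, 684 and 148 CPM (adjusted p = 0.0512). None of 9 tested muscle genes passed in limma, where all 9 had an unadjusted p under 0.05, 7 passed in edgeR, 3 in DESeq2, and all 9 passed as lower without control 3. The 29 tested genes of the mitochondrial genome and the 76 nuclear genes of oxidative phosphorylation gave no call either, with medians of -0.61 and -0.20, and without control 3 the medians were -0.96 and -0.27 and 11 and 18 of them were lower. Of 85 tested cytosolic ribosomal protein genes Rpl15 alone passed, lower by 0.90 on the log2 scale (adjusted p = 0.0213), the median was -0.23, and 26 were lower without control 3. Of the 85, 23 had an unadjusted p under 0.05, all lower, edgeR called 1 and DESeq2 called 11. An unadjusted p under 0.05 was reached by 3 mitochondrial and 15 oxidative phosphorylation genes. edgeR and DESeq2 each called 1 mitochondrial and 0 oxidative phosphorylation genes.

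The effect of the genotype in bone was then set against its effect in Meckel's cartilage and in condylar cartilage in a fit of all 18 libraries, in which 11469 genes were tested and all groups shared 1 estimate of the spread. The cartilages came from the same embryos, a link the fit did not use. The difference of the effects passed for 6 genes (0.0523%) between bone and Meckel's cartilage and for 0 genes (0%) between bone and condylar cartilage in limma, where 344 genes had an unadjusted p under 0.05, and edgeR called 0 with 284 at an unadjusted p under 0.05. The smallest adjusted p against condylar cartilage was 0.242, for Rpl15, followed by Tppp3 and Penk. Of the 141 bone genes 114 were tested here. Penk was lower in mutant bone (-1.92 ± 0.29) and higher in mutant Meckel's cartilage (0.58 ± 0.22), a difference of -2.50 ± 0.37 (adjusted p = 0.0104). Lyz2 (-1.47 against 1.90), Mfap4 (-1.14 against 0.89) and the Wnt antagonist gene Sfrp1 (-0.78 against 1.18) differed in the same direction, with adjusted p-values of 0.0292, 0.043 and 0.0104. Atp6v1b2 (0.91 against -1.04) and Xpr1 (0.77 against -0.60) differed in the other direction (adjusted p = 0.0292 for each). The effect in Meckel's cartilage alone passed for none of the 6 in that fit, with adjusted p-values of 0.0827 to 0.231. In bone alone that fit gave adjusted p-values of 0.138 for Sfrp1, 0.135 for Mfap4 and 0.0763 for Atp6v1b2, which did not pass, and the other 3 genes passed. Enpp1 and Ank gave differences of 1.24 ± 0.76 and 0.95 ± 0.35 against Meckel's cartilage, which did not pass (adjusted p = 0.557 and 0.342), and Acp5 gave 2.75 ± 0.62 (adjusted p = 0.122). The count of 6 became 3, 3 and 4 without bone mutant 1, 2 or 3, 2 without bone control 1, 2 without bone control 2 and 14 without bone control 3.

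**Figure D5:**
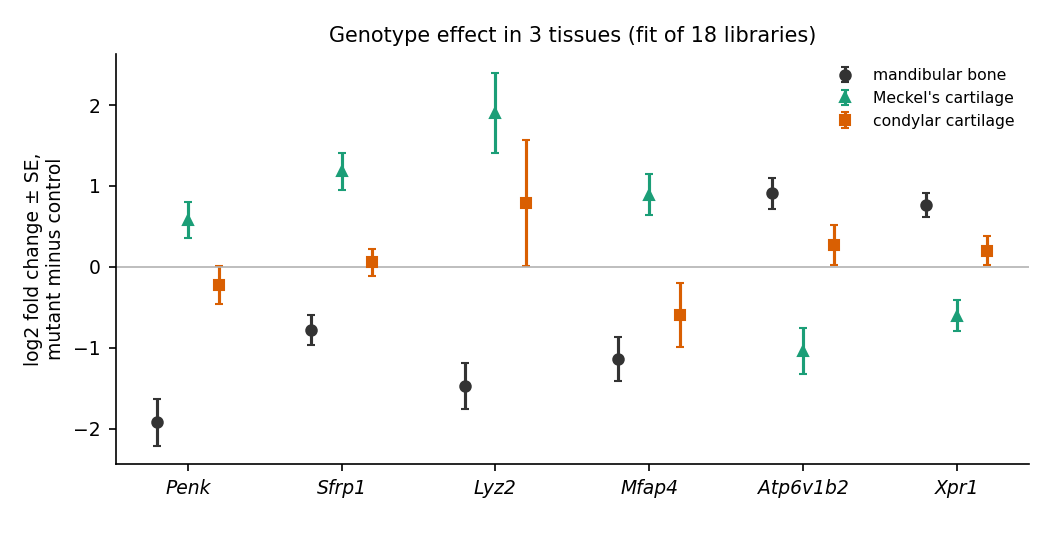
Log2 fold change (mutant minus control) with its SE in mandibular bone, Meckel's cartilage and condylar cartilage for the 6 genes whose effect differed between bone and Meckel's cartilage, from the fit of 18 libraries. In each gene the 2 effects have opposite signs, and the effect in condylar cartilage lies between them.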

How the data were processed

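Mandibular bone of 3 Fgfr2+/S252W and 3 Fgfr2+/+ embryos was captured by laser, its RNA was amplified, and libraries were sequenced in pairs. The deposited counts are fragments per gene, made by the authors with STAR on mm10 and featureCounts 1.5.0-p1 without strand over Ensembl GRCm38 release 75, so that overlapping genes on opposite strands are not separated. Symbols matched 36964 of 38243 gene identifiers. A gene was tested when 50% or more of the 6 libraries exceeded 1 FPKM. Counts were scaled by TMM and fitted with voom and limma 3.58.1 (R 4.3.3), and p-values were adjusted by Benjamini-Hochberg over all tested genes at 0.05. The fits were tested on simulated data. Alternatives were edgeR 4.0.16 (quasi-likelihood), DESeq2 1.42.0, other scalings and filters, sample weights, a length correction, all 18 libraries, the replicate number as a block, and leaving out each library. The median SE of a fold change was 0.186 on the log2 scale. The libraries held 10966635 to 15585778 fragments. The named genes were the 12 largest changes and 5 smallest p-values in each direction, list members that passed with abundant members that did not, the FGF receptors, and the leading differences from cartilage, and others are said to have been picked after their values were seen. As an exception, a passing member of the lysosome list is not reported here. The libraries, lists and tests were chosen with earlier results of these data known.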

Additional observations from a re-analysis of the deposited data

Results flagged for a closer look

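The effect of the genotype differed between mandibular bone and Meckel's cartilage for 6 genes, by a test of the difference itself in limma over 18 libraries, with bone minus cartilage in log2 units. Penk gave -2.5 (adjusted p = 0.0104), Sfrp1 -1.97 (adjusted p = 0.0104), Lyz2 -3.37 (adjusted p = 0.0292) and Mfap4 -2.03 (adjusted p = 0.043). Atp6v1b2 gave 1.95 and Xpr1 1.37 (adjusted p = 0.0292 for each). edgeR called 5 genes, 3 of them among these 6. With the replicate number as a block within each tissue 1 of the 6 passed, though same-numbered samples were not shown to be paired. Of the 6, 3 passed without bone mutant 1, 3 without mutant 2 and 4 without mutant 3, 2 passed without bone control 1 and 2 without control 2, and all 6 passed without control 3, where 14 genes passed in all.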

How the results depend on the processing

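The 141 genes called in bone kept their sign under each alternative in which they were tested, but their number moved. It was 91 with the filterByExpr filter, 453 with DESeq2, 457 with sample weights and 10 in the fit of 18 libraries, and from 10 (without mutant 2) to 1370 (without control 3) when a library was left out. edgeR without control 3, chosen after seeing the data, gave 1377. The osteoclast resorption list had 0 passing members in the fit of 18 libraries and 0 to 16 with a library left out. Differences from Meckel's cartilage numbered 2 to 14, and from condylar cartilage 0 to 1, with a library left out. The cause of these shifts was not tested. With the replicate number as a block 539 genes passed in bone and 1 differed from Meckel's cartilage. Same-numbered samples deviated together with correlations of -0.085, 0.242 and 0.141, so the pairing was not shown.

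Values near 0 changed sign. Fgfr2 was 0.00337 with no filter and ran from -0.14 to 0.14 with a library left out, Tnfrsf11b from -0.0532 to 0.41 (-0.0557 in edgeR without control 3), Atp6v0a1 from -0.20 to 0.039, Alpl from -0.064 to 0.19 and Fgfr3 from -0.11 to 0.27. Residual degrees of freedom were 4, and genes with few fragments, such as Siglec15 and Adgre1, are the least precise.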

Other observations

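Gene groups not described above gave few calls. Of 17 tested matrix metalloproteinases and their inhibitors Mmp9 alone rose in limma (1 call in edgeR and 3 in DESeq2), with a median log2 fold change of 0.15, and without control 3 the median was 0.24 and 5 were higher. Of 7 tested cartilage genes 0 passed in limma, edgeR or DESeq2, while 4 had an unadjusted limma p under 0.05, and the median was 0.32. Sox5 entered this list's test through the mutants alone, so the median includes a member that was testable only because the mutants were high. Col2a1, the collagen of cartilage, gave 1.63 (adjusted p = 0.0833), without overlap of the groups. Of 22 tested genes of glycolysis and the hypoxia response 0 passed in these 3 tools, 5 had an unadjusted p under 0.05, and the median was 0.12. Of 15 tested genes whose mutation causes craniosynostosis 0 passed in these 3 tools, 2 had an unadjusted p under 0.05, and the median was 0.02 (0.12 without control 3). Without control 3, 1 cartilage gene and 1 glycolysis gene were higher, and 1 craniosynostosis gene was higher and 2 were lower. In that fit 5.33% of all genes were higher and 6.10% lower.

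Markers of other tissues were sparse. Of 14 nerve and Schwann cell markers 2 were tested, of 13 epithelial markers 1, and of 15 markers of granulocytes, mast cells and lymphocytes 1. In limma, edgeR and DESeq2 0 of these passed, and 1 nerve marker had an unadjusted p under 0.05. Without control 3, 0 passed in limma. Nerve markers summed to 24.8, 21.5 and 12.2 CPM in controls 1, 2 and 3 and to 11.6 to 12.4 CPM in the mutants, so that control 3 lay with the mutants, as it did for skeletal muscle. Further genes on no list passed and were singled out after their values were seen: Plxna4, a semaphorin receptor subunit, rose by 1.05 and Anpep, an aminopeptidase, by 0.82, and Aldh1a3, a retinoic acid-making enzyme, and Bpgm, a red cell enzyme, gave -1.17 and -0.68 on the log2 scale.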
